A study of Mus musculus with 6 samples.

Results

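Fatty acid synthesis and lipid storage were followed through 10 genes in early mammary tumors with and without the junctional adhesion molecule JAM-A. The genes are Srebf1, Acly, Acaca, Fasn, Scd1, Scd2, Elovl6, Thrsp, Pparg and Lpl, chosen by name for their function with earlier results of these data known. Each was read from 1 probe set that the platform annotation pairs with a single gene symbol, and of several for a gene, the brightest on average over all arrays was taken. All 10 were found among 19938 genes measured in this way, through 11 such probe sets, because Acaca has 2. RNA of 6 tumors was measured, each on its own Affymetrix array of the Mouse Gene 1.0 ST design. All mice carried the polyoma middle T oncogene under the MMTV promoter, which drives it in mammary epithelium. The JamA- group holds 3 tumors of genotype MMTV-PyMT JAM-A KO (JAM-A-/-, tumors 5333, 5346 and 5347), and the JamA+ group 3 tumors of genotype MMTV-PyMT with intact JAM-A (JAM-A+/+, tumors 5369, 5370 and 5393). Tumors were taken early in their development, and age and strain of the single mice are not given in the labels. The labels do not say that the tumors of a group came from different mice, so these tumors may not be independent. The p-values set a group difference against the spread between tumors within a group, which may be in part technical. The tissue label of tumor 5347 does not mention the loss of JAM-A, which its title and genotype give. Values are given in this order of tumors throughout. They are log2 RMA expression, in which 1 unit is a doubling, and levels of different genes cannot be compared because each probe set has its own response.

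F11r, the gene of JAM-A, separated the groups as labelled, at 5.91, 5.55 and 6.53 in JAM-A-/- tumors versus 10.1, 10.23 and 10.47 in JAM-A+/+ tumors. Markers of luminal epithelium were measured in every tumor, with Krt18, a simple epithelial keratin, between 11.56 and 12.34. The medians of the 6 arrays lay between 6.23 and 6.34. The interquartile range was 3.41, 3.61 and 3.74 in JAM-A-/- and 3.27, 3.5 and 3.53 in JAM-A+/+ tumors, narrowest in tumors 5369 and 5333, and the array weights that limma estimated were below 1 for tumors 5333 (0.488), 5347 (0.597) and 5369 (0.655). Whole tumors were extracted, so that a lower value can reflect fewer cells of a type or less RNA per cell, and these cannot be told apart.

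Fatty acids are built in the cytosol from acetyl-CoA. ATP citrate lyase (Acly) makes acetyl-CoA from citrate, acetyl-CoA carboxylase (Acaca) turns it into malonyl-CoA, and fatty acid synthase (Fasn) joins these units into palmitate, which Elovl6 elongates and the stearoyl-CoA desaturases Scd1 and Scd2 make unsaturated. The transcription factor SREBP-1, encoded by Srebf1, switches on these enzymes, and its relative SREBP-2, encoded by Srebf2, acts mainly on cholesterol synthesis. Thrsp encodes Spot 14, a small protein that promotes lipogenesis in liver, fat and mammary gland. Pparg encodes the master regulator of fat cell differentiation, and Lpl the lipase that frees fatty acids from circulating triglycerides. In the mammary gland the synthesis enzymes serve milk fat production in epithelium, while the surrounding fat pad holds adipocytes with high Pparg and Lpl.

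The promoters of 3 members are shown because they belong to the central enzyme (Fasn), to the member whose groups did not overlap (Acly) and to the member with the highest difference (Thrsp). The promoter of Hmgcs1, an enzyme of cholesterol synthesis, is shown beside them as a gene of the neighbouring pathway and was chosen after its values were seen. Each run holds the 250 bases before the start of transcription in RefSeq, build GRCm38.p6, from 5' to 3' along the gene. Capitals mark matches on either strand to 4 motifs, the sterol response element TCACNCCAC and its short form ATCACCC, the CCAAT box ATTGG and the GC box GGGCGG, and adjoining or overlapping matches run together.
Fasn (chr11:120824548-120824797, - strand): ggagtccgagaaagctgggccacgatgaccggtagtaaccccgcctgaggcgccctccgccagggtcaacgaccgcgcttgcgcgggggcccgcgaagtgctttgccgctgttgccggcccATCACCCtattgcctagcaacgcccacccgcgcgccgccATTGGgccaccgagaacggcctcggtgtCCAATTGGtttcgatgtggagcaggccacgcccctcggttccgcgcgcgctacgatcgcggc
Acly (chr11:100528001-100528250, - strand): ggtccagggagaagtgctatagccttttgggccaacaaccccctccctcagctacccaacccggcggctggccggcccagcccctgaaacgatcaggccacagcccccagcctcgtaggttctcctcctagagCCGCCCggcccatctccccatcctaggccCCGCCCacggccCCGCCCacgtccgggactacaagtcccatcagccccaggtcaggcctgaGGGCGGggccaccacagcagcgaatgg
Thrsp (chr7:97417551-97417800, - strand): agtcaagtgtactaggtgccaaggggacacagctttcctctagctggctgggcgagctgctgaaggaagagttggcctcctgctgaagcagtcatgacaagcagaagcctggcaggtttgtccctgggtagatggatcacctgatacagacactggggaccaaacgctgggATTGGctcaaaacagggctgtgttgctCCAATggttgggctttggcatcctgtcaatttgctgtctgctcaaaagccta
Hmgcs1 (chr13:119690101-119690350, + strand): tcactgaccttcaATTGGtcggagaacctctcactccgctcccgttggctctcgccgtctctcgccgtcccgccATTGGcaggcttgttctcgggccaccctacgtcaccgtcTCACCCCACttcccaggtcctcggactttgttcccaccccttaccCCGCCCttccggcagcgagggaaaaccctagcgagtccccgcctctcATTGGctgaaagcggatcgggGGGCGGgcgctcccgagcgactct
The short form ATCACCC began 129 bases before the start of Fasn, and the longer TCACNCCAC began 137 bases before the start of Hmgcs1. RefSeq promoters were matched for 7 of the 10 members, in 11 windows because Srebf1 and Pparg have several starts. None of these 11 windows held TCACNCCAC, which was found in 1.05% of all 32851 promoter windows of the same length, and 1 held ATCACCC, which was found in 2.28% of them. Of 14 windows of the cholesterol synthesis and uptake genes listed below, 1 held TCACNCCAC, that of Hmgcs1, and 1 held ATCACCC. The CCAAT box was present in 6 of the 11 windows and in 33.8% of all windows, and the GC box in 5 of the 11 and in 32.7%. A further motif, the E-box CACGTG, was searched but is not marked. It was in 0 of the 11 windows and in 6.02% of all windows. These matches describe letters in short windows and were not tied to binding, and the motifs were chosen after the sequences were seen.

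The comparison of JAM-A-/- with JAM-A+/+ tumors asks whether the lipogenic programme differs with the genotype. No member met the criteria of a fold change of at least 1.3 in either direction and an unadjusted p under 0.05 in limma, a linear model that shares the estimate of the spread among all probe sets, while 5.33% of all genes did, 4.73% higher and 0.592% lower in JAM-A-/- tumors. None had an unadjusted p under 0.05, which 8.16% of all genes had, and none passed the Benjamini-Hochberg adjustment, at adjusted p from 0.461 to 0.983, where 0.00502% of all genes, F11r alone, passed it. Tests on the spread of each gene alone, with equal or with unequal variances, also called 0 of 10, and 2.78% and 1.96% of all genes. The log2 difference, JAM-A-/- minus JAM-A+/+, was above 0 for 8 of the 10 members, as it was for 71.8% of all genes. The median difference was 0.16 over the members and 0.09 over all genes. The groups did not overlap for 1 member, Acly, where 15% of all genes had no overlap, 12.4% with JAM-A-/- tumors the higher. With 3 tumors per group an exact permutation test of 1 gene cannot go below p = 0.1.

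**Figure D1:**
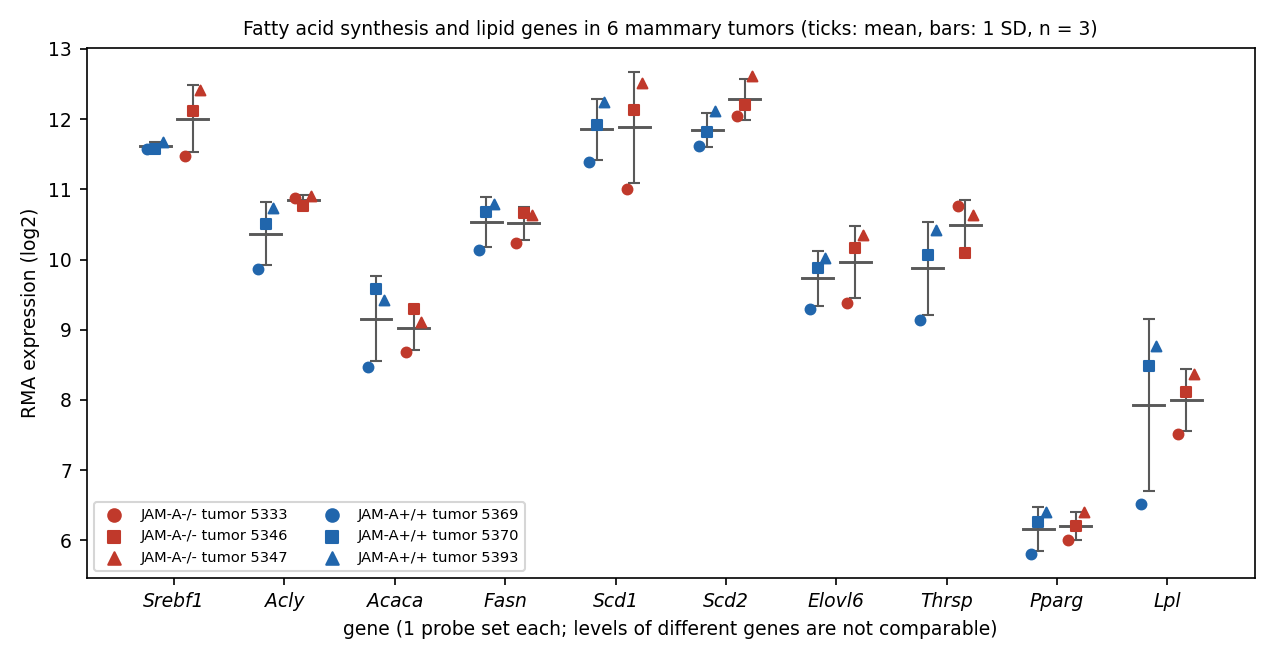
Level of the 10 genes (horizontal axis) as log2 RMA values (vertical axis), with 1 symbol for each tumor, blue for JAM-A+/+ and red for JAM-A-/- (n = 3 each). Ticks are group means and bars 1 SD, and the groups overlap for every gene but Acly, whose JAM-A-/- tumors lie between 10.76 and 10.91 and whose JAM-A+/+ tumors lie between 9.87 and 10.74.

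Srebf1, on chromosome 11, was 11.48, 12.11 and 12.42 in JAM-A-/- tumors and 11.58, 11.57 and 11.68 in JAM-A+/+ tumors. The JAM-A+/+ tumors were nearly level, whereas the JAM-A-/- tumors spread over 0.94, with 1 of them below all JAM-A+/+ tumors and the others above. The log2 difference of 0.39 (standard error 0.23, 95% interval -0.13 to 0.92, adjusted p = 0.548 from limma) did not meet the criteria. It was 0.66 without tumor 5333, which met them (adjusted p = 0.162 from limma).

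Acly, the first enzyme of the pathway, was 10.87, 10.76 and 10.91 in JAM-A-/- tumors and 9.87, 10.5 and 10.74 in JAM-A+/+ tumors. Every JAM-A-/- tumor stood above every JAM-A+/+ tumor, the nearest pair being 10.76 and 10.74. The log2 difference was 0.48 (95% interval -0.03 to 0.98, two-sided exact permutation p = 0.1, adjusted p = 0.473 from limma), and without tumor 5369 it was 0.23.

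Acaca was 8.68, 9.29 and 9.11 in JAM-A-/- tumors and 8.47, 9.58 and 9.43 in JAM-A+/+ tumors. The lowest and the highest value both belonged to JAM-A+/+ tumors, and the log2 difference was -0.13 (95% interval -0.83 to 0.57). Its other probe set gave -0.28, with 7.82 in tumor 5369 and 9.05 in tumor 5370, so that both probe sets placed the same tumors at the ends.

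Fasn was 10.24, 10.66 and 10.64 in JAM-A-/- tumors and 10.13, 10.68 and 10.79 in JAM-A+/+ tumors. In each group 1 tumor lay lower and the others were nearly level, and the group means were 10.51 ± 0.24 (SD, n = 3) and 10.53 ± 0.35 (SD, n = 3). The log2 difference of -0.02 had a 95% interval of -0.50 to 0.46, which runs from a fold change of 0.709 to one of 1.37, a range that reaches past a 1.3 fold in both directions.

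The pooled SD within the groups was 0.64 for the desaturase Scd1 and 0.27 for Scd2. Scd1 was 11, 12.13 and 12.52 in JAM-A-/- tumors and 11.39, 11.92 and 12.25 in JAM-A+/+ tumors. The JAM-A-/- tumors held both the lowest and the highest value, and the log2 difference was 0.03 (95% interval -0.88 to 0.94). Scd2 was 12.04, 12.2 and 12.61 in JAM-A-/- tumors and 11.62, 11.81 and 12.11 in JAM-A+/+ tumors. The groups overlapped by 1 tumor of each, and the log2 difference was 0.44 (standard error 0.19, 95% interval -0.0047 to 0.88, adjusted p = 0.461 from limma), the smallest p of the members. Scd1 and Scd2 are neighbours on chromosome 19, and no test of the difference between them was made.

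Elovl6 was 9.38, 10.17 and 10.35 in JAM-A-/- tumors and 9.29, 9.88 and 10.02 in JAM-A+/+ tumors. In each group 1 tumor stood clearly below the others, and the log2 difference was 0.24 (95% interval -0.43 to 0.91). Thrsp was 10.76, 10.09 and 10.63 in JAM-A-/- tumors and 9.14, 10.06 and 10.42 in JAM-A+/+ tumors. Its log2 difference of 0.62 was the highest of the members, a fold change of 1.54 (95% interval 0.904 to 2.61, adjusted p = 0.518 from limma). It was the member in which tumor 5333 was the highest of all, and the difference was 0.25 without tumor 5369, which was 2.14-fold below the mean of the other JAM-A+/+ tumors.

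Pparg was 6, 6.21 and 6.4 in JAM-A-/- tumors and 5.81, 6.26 and 6.41 in JAM-A+/+ tumors. The groups ran over nearly the same range, and the log2 difference was 0.04 (95% interval -0.39 to 0.47). The values of Pparg lay around the array medians of 6.23 to 6.34, and whether they stand above background was not tested. Lpl was 7.52, 8.11 and 8.37 in JAM-A-/- tumors and 6.52, 8.48 and 8.77 in JAM-A+/+ tumors. The JAM-A+/+ tumors enclosed the JAM-A-/- tumors, at means of 7.92 ± 1.22 (SD, n = 3) and 8 ± 0.44 (SD, n = 3), and the log2 difference was 0.08 (95% interval -1.21 to 1.36). Without tumor 5369 it was -0.62 (adjusted p = 0.737 from limma), and all JAM-A-/- tumors then lay below the remaining JAM-A+/+ tumors.

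**Figure D2:**
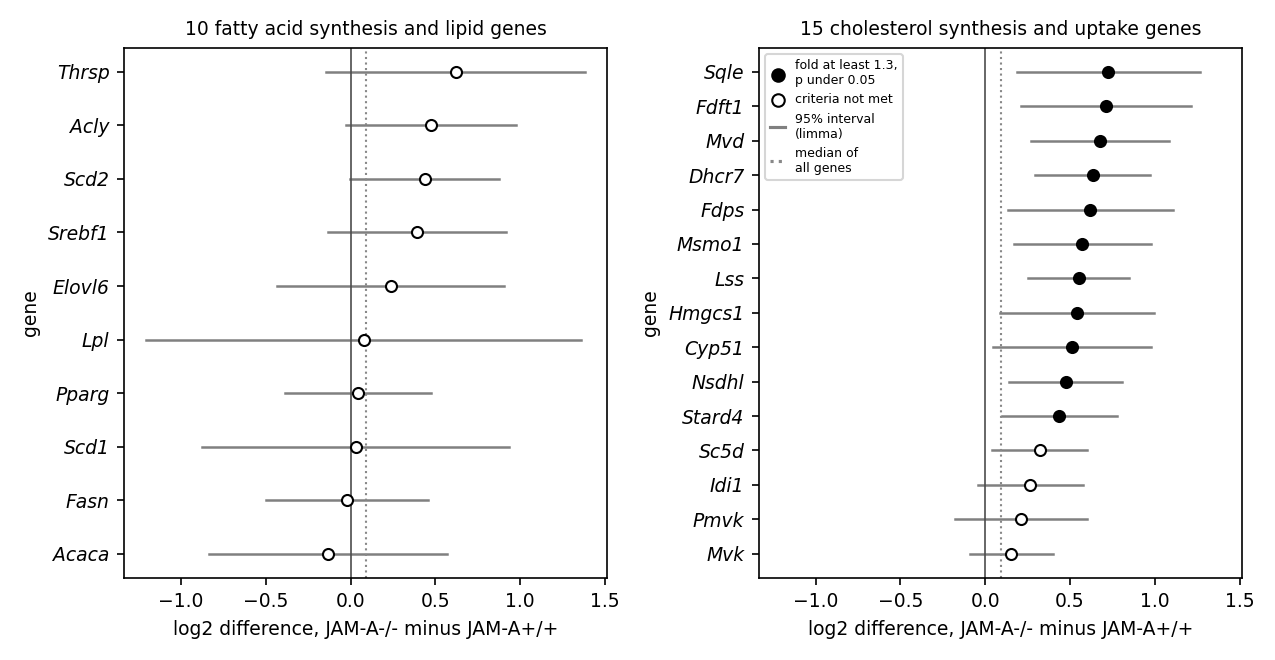
Log2 difference between JAM-A-/- and JAM-A+/+ tumors (horizontal axis) for the 10 genes (left) and for 15 genes of cholesterol synthesis and uptake (right), with 95% intervals from limma. Filled points met the criteria of a 1.3 fold and p under 0.05. This was true of 0 of 10 genes on the left, of 11 of 15 on the right and of 5.33% of all genes. The dotted line is the median of all genes (0.09).

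The spread within a genotype was wide for these genes. The pooled SD within the groups had a median of 0.40 over the 10 members and of 0.17 over all genes, and the SD of Lpl, 0.92, was above that of 99.8% of genes. The same tumors gave the low values. Tumor 5369 was the lowest of all 6 in 8 of the 10 members, where it was the lowest in 36.7% of all genes. It was the lowest of the JAM-A+/+ group in 9 of 10, where it was in 50.6% of all genes. Tumor 5333 was the lowest of the JAM-A-/- group in 8 of 10 members, where it was in 52.8% of all genes. The exceptions were Acly and Thrsp in tumor 5333 and Srebf1 in tumor 5369, which was 0.01 above the lowest. Tumor 5369 was 4.30-fold below the mean of the other JAM-A+/+ tumors for Lpl, 2.05-fold for Acaca and 1.44-fold for Pparg, and tumor 5333 was 2.51-fold below the other JAM-A-/- tumors for Scd1 and 1.84-fold for Elovl6.

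Markers of adipocytes were low in the same tumors. All 14 of the 16 listed markers that were measured were lowest of the 6 in tumor 5369, and 13 of 14 were lowest of the JAM-A-/- group in tumor 5333. Both held for all 6 endothelial, all 6 fibroblast and all 5 macrophage markers, so the pattern was not particular to adipocyte markers. For luminal markers the counts were 5 and 9 of 9, for milk genes 4 and 3 of 6, and for skeletal muscle markers 0 and 5 of 5. Averaged over the adipocyte markers, the deviation of a tumor from the 6-tumor mean of a gene was -0.43, 0.17 and 0.41 in JAM-A-/- tumors and -1.003, 0.34 and 0.51 in JAM-A+/+ tumors. Adipoq, the adipokine adiponectin, was 5.7, 6.69 and 7.19 in JAM-A-/- and 4.54, 6.84 and 7.26 in JAM-A+/+ tumors, and Fabp4, the fatty acid carrier of adipocytes, was 6.91, 8.36 and 8.84 and then 6.44, 8.97 and 9.11 (both chosen after their values were seen). Of the markers the rule named, Pnpla2, a triglyceride lipase, had a log2 difference of 0.32 (95% interval -0.18 to 0.82) and Lep, the gene of leptin, of 0.16. None of the 14 adipocyte markers met the criteria, and their median difference was 0.10.

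The mean deviation of Pparg and Lpl was -0.31, 0.09 and 0.31 in JAM-A-/- tumors and -0.91, 0.30 and 0.52 in JAM-A+/+ tumors. The 6 enzymes had deviations of -0.30, 0.20 and 0.36 in JAM-A-/- tumors and -0.54, 0.06 and 0.22 in JAM-A+/+ tumors. The mean over all genes was -0.03, 0.05 and 0.13 and then -0.11, -0.04 and -0.01, smaller in size, and it ordered the tumors within each group as these genes, the adipocyte markers and the luminal markers did. In tumors 5333 and 5369 luminal epithelial markers stood at -0.28 in both, macrophage markers at -0.32 and -0.49, fibroblast markers at -0.09 and -0.65, and endothelial markers at -0.08 and -0.55. The part of adipocytes and of these other cells in the values of the members was not tested.

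**Figure D3:**
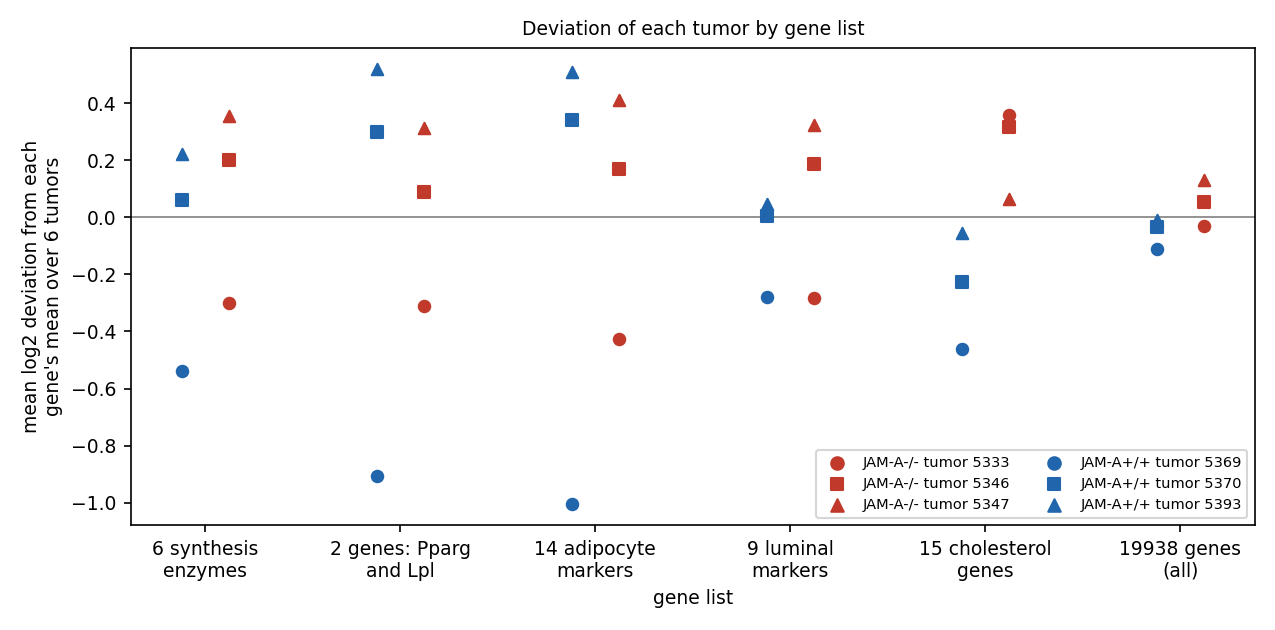
Deviation in log2 units of a tumor from the 6-tumor mean of a gene, averaged over the genes of a list (vertical axis), for each list (horizontal axis), with 1 symbol for each tumor, blue for JAM-A+/+ and red for JAM-A-/-. Tumors 5369 and 5333 are the lowest for the 6 enzymes, for Pparg and Lpl, for the adipocyte markers and for the luminal markers. For the cholesterol genes tumor 5333 is the highest (0.36) and the genotypes do not overlap.

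Single tumors changed what was called among the members. Without tumor 5333 the criteria were met by 2 of 10 members, Srebf1 and Scd2, and by 10.8% of all genes. Without tumor 5393 they were met by 3 of 10, Acly, Scd2 and Thrsp, and by 7.44% of all genes. All of these members were higher in JAM-A-/- tumors. Without tumor 5369, 5370, 5346 or 5347 none met them. The median difference of the members was 0.47 without tumor 5333 and -0.06 without tumor 5369. With tumors 5333 and 5369 both left out, an alternative chosen after seeing the data that leaves 2 tumors per group, the median was 0.17, and 1 member met the criteria, Srebf1, at 0.64 (adjusted p = 0.318 from limma), as 7.14% of all genes did.

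**Figure D4:**
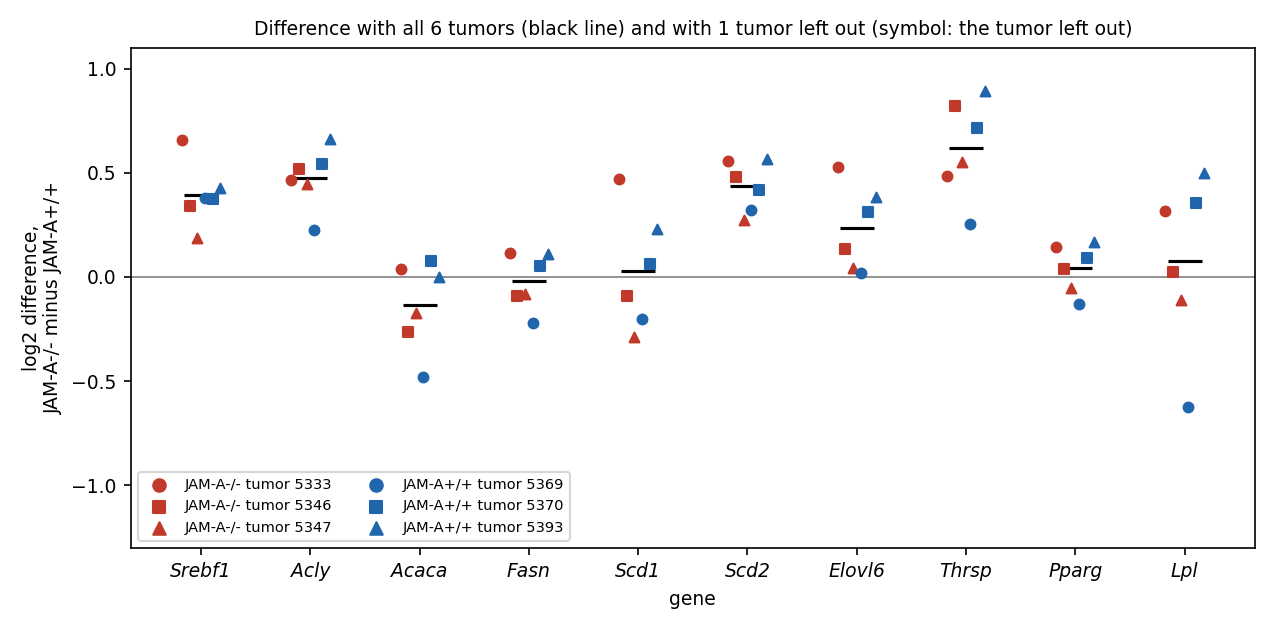
Log2 difference between JAM-A-/- and JAM-A+/+ tumors (vertical axis) of the 10 genes (horizontal axis), with all 6 tumors (black line) and with 1 tumor left out (symbol and colour give the tumor left out). Lpl ranges from -0.62 without tumor 5369 to 0.50 without tumor 5393, while Srebf1, Acly, Scd2, Elovl6 and Thrsp stay above 0 in each case.

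Other genes of lipid metabolism were taken from 6 lists chosen for function, with earlier results of these data known. The shares of these lists are therefore not independent of the data. Where a gene of the lists met the criteria it was higher in JAM-A-/- tumors. Of 19 measured partners in fatty acid synthesis, 4 met them (21.1%, background 5.33%), at a list median of 0.25. These were Fads2, a fatty acid desaturase, at 0.46, Tecr, which completes the elongation of very long fatty acids, at 0.44, Slc25a1, the carrier that exports citrate from mitochondria to Acly, also at 0.44, and Mid1ip1, a relative of Spot 14 that activates acetyl-CoA carboxylase, at 0.39. The count was 1 without tumor 5369, 2 without tumor 5346 or 5347, and 7 without tumor 5333, when 3.1%, 4.54%, 3.91% and 10.8% of all genes met the criteria without tumor 5369, 5346, 5347 and 5333. None of these 4 met the criteria after quantile normalization over all probe sets or over those listed in the annotation, where all 4 remained above 0.

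Of 13 genes that control lipogenic transcription, 3 met the criteria (23.1%, background 5.33%), at a list median of 0.27. Insig1, which retains the SREBP proteins in the endoplasmic reticulum and is itself induced by them, was 11.4, 10.38 and 10.36 in JAM-A-/- tumors and 9.53, 9.64 and 10.09 in JAM-A+/+ tumors, a log2 difference of 0.96 (standard error 0.30, adjusted p = 0.366 from limma). Tumor 5333, the lowest for Srebf1 and Scd1, was the highest for Insig1. Srebf2 was 9.74, 10.16 and 9.88 in JAM-A-/- tumors and 9.27, 9.56 and 9.61 in JAM-A+/+ tumors, at 0.45, and Mlx, the partner of the carbohydrate response factor, was at 0.40. None of these 3 met the criteria under either quantile normalization, and in the list as a whole 1 gene did without tumor 5369, when 3.1% of all genes did.

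Of 12 genes of triglyceride assembly and droplet coats, Plin2 and Plin3, which coat lipid droplets, met the criteria at 0.40 and 0.61, and Acsl4, which activates long-chain fatty acids, at 0.43 (3 of 12, 25% against 5.33% of all genes). Of the 12 genes, 1 met them without tumor 5346 or 5369 and none without tumor 5347. Of all genes, 4.54%, 3.1% and 3.91% met them without tumor 5346, 5369 and 5347. Of 12 partners of lipoprotein lipase and genes of fatty acid uptake, 1 did, Sel1l, which assists the maturation of the lipase in the endoplasmic reticulum, at 0.60. That is 8.33% of the list, near the 5.33% of all genes, and without tumor 5333, when 10.8% of all genes met the criteria, the count was 4. Of 12 genes of fatty acid oxidation, Cpt1a, which admits fatty acids to mitochondria, met them at 0.82 (standard error 0.17, adjusted p = 0.244 from limma), and so did Slc25a20, the carnitine carrier, at 0.50 (2 of 12, 16.7%). Cpt1a was 8.69, 8.79 and 9.08 in JAM-A-/- tumors and 7.73, 8.22 and 8.16 in JAM-A+/+ tumors, and Sel1l and Cpt1a met the criteria under each of the 17 alternatives run.

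Cholesterol synthesis and uptake, the branch under SREBP-2, stood apart in number. Of 15 measured genes, 11 met the criteria (73.3%, background 5.33%). All 15 had a difference above 0, as 71.8% of all genes had. The list median was 0.54, where that of all genes was 0.09. Dhcr7, which makes cholesterol from 7-dehydrocholesterol, was at 0.63, Lss, which closes the sterol ring, at 0.55, Mvd, of the mevalonate pathway, at 0.68, and Nsdhl at 0.47. The 11 became 3 with quantile normalization over all probe sets and 5 over the listed ones, when 3.73% and 3.32% of all genes met the criteria. They were 5 without tumor 5369, 7 without tumor 5333, 7 without tumor 5346, 6 and 5 with equal and unequal variances of each gene alone, 5 at a fold of 1.5, and 3 without tumors 5333 and 5369, and all 15 differences stayed above 0 in each of these. The share of all genes was, in the same order, 3.1%, 10.8%, 4.54%, 2.78%, 1.96%, 1.35% and 7.14%. No test set this list against the fatty acid genes, so the 11 of 15 and the 0 of 10 stand side by side as counts.

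The genes whose profile over the 6 tumors was nearest to that of the 6 enzymes, by the root mean square of the log2 differences after centring, were Ets2 (0.03), Chd4, Ctnnbip1, Denn2b and Ppp4r1 (0.07 to 0.08). Nearest to the mean profile of Pparg and Lpl were Mmp3, Retn, Pdk4, Lipe and Cdo1, at 0.17 each. Retn and Lipe were among the adipocyte markers. The likeness rests on 6 tumors and is a description.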

How the data were processed

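Per the labels and the submitters' processing notes, the deposited log2 values of 35557 probe sets come from RMA, run by the authors in Expression Console 1.1 (Affymetrix). The deposited distributions are not identical between arrays (interquartile ranges of 3.27 to 3.74), RMA values carry no total RNA amount, and the sources used here do not give its settings or any filter. Arrays give no counts, and 3 arrays per group limit the precision.

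Tumors were grouped by title. limma 3.58.1 in R 4.3.3 was fitted to all 35557 probe sets (3 versus 3, no covariate, empirical Bayes, Benjamini-Hochberg over all of them), and the script was tested on simulated data. The annotation gives 1 symbol to 21789 probe sets, several to 1621 and lists 12147 not at all. Symbols were updated through RefSeq gene identifiers (21698 matched), and genes of the lists without such a probe set were not analysed here. Of each list the text names by rule the 4 genes of smallest p among those meeting the criteria, and where none did the 2 of smallest p, and for each profile the 5 nearest genes. The members and lists were chosen with earlier results of these data known. The alternatives were other tests, array weights, 3 normalizations, a filter on the 40% dimmest probe sets, a fold of 1.5, a mean over the probe sets of a gene and leaving out each tumor. Leaving out tumors 5333 and 5369 together was chosen after seeing the data.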

Additional observations from a re-analysis of the deposited data

How the results depend on the processing

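Under 17 alternatives the number of members meeting the criteria was 0 in 11 of them, 1 with array weights (Srebf1), 2 with median centring and 2 without the 40% dimmest probe sets (Acly and Scd2 both times), 0 to 3 with 1 tumor left out, and 1 without tumors 5333 and 5369. The share of all genes was 7.59%, 8.46%, 7.74%, 3.1% to 10.8% and 7.14% in these, against 5.33%. Members without overlap between the groups numbered 0 with quantile normalization over all probe sets and 0 over the listed ones, 1 to 4 with 1 tumor left out, and 7 without tumors 5333 and 5369. Of all genes, 15% had no overlap with all tumors, 18.6% and 15.9% after the quantile normalizations, 21.3% to 37.5% with 1 tumor left out and 46.1% without tumors 5333 and 5369. The median difference of the members lay between -0.06 and 0.47 with 1 tumor left out, and at 0.075 and 0.02 with the quantile normalizations, where the median of all genes was 0.07 and 0.00. Signs turned for the members near 0. With array weights Pparg was -0.0165 and Lpl -0.16. With quantile normalization over all probe sets Scd1 was -0.17, and over the listed ones Scd1 was -0.16, Pparg -0.0036 and Lpl -0.0247. Fasn was 0.0367 with median centring, and without tumors 5333 and 5369 Pparg was -0.03 and Lpl -0.38. With 1 tumor left out Acaca ranged from -0.48 to 0.0767, Fasn from -0.22 to 0.12, Scd1 from -0.29 to 0.47, Pparg from -0.13 to 0.17 and Lpl from -0.62 to 0.50. The cause was not tested. Srebf1, Acly, Scd2, Elovl6 and Thrsp kept their direction under all 17, and no member passed the adjustment over all probe sets under any. No paired analysis was possible because the tumor numbers are not shared between the groups.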

Other observations

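Markers of skeletal muscle ran differently from the lipid genes, lowest in tumor 5393 for all 5 measured, with Acta1, the skeletal muscle actin, at 7.37 there and between 8.52 and 10.43 in the other tumors. All 5 had a difference above 0, and Acta1 alone met the criteria, at 1.31 (adjusted p = 0.449 from limma). No muscle marker met them without tumor 5346, 5347, 5369 or 5393 or in tests of each gene alone. Csn1s1, a casein of milk, was 8.15, 8.9 and 7.78 in JAM-A-/- tumors and 9.15, 11.28 and 9.49 in JAM-A+/+ tumors, and of 6 milk genes measured it was the 1 that met the criteria, lower in JAM-A-/- tumors (log2 difference -1.70, adjusted p = 0.378 from limma). It did not meet them without tumor 5347 or in tests of each gene alone. Its highest tumor, 5370, was not the highest for any of the fatty acid members except Acaca. Endothelial markers were lowest in tumor 5369 for all 6 measured, and Pecam1 met the criteria at 0.60, while of 6 fibroblast markers the collagen gene Col1a2 met them at 0.58 and the receptor gene Pdgfra at 0.45. None of the 6 fibroblast markers met them without tumor 5346, 5347 or 5369, in tests of each gene alone or at a fold of 1.5, and no endothelial marker did without tumor 5346, 5347, 5369 or 5393 or in tests of each gene alone. Of 5 macrophage markers none met them, with Csf1r at 0.18 and Lyz2 at -0.14, and none of 9 luminal markers did, with Krt18 at 0.34 and Krt19 at 0.41.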
